A study of Homo sapiens with 6 samples.

Results

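A431 cells given epidermal growth factor (EGF) together with gefitinib were compared with A431 cells given EGF alone. A431 is a human epidermoid carcinoma line with an amplified EGF receptor gene. The arrays were chosen by their titles, 4 of the 6 in the study with 2 in each group, and the features were the 20893 transcript cluster probe sets among the 24351 rows of the deposited table. The cells were grown with 10% fetal bovine serum and every group was starved for 24 h. The EGF group received 100 ng/ml EGF and the gefitinib group 100 ng/ml EGF and 10 µM gefitinib, and the harvest is labelled 30 min for all of them. That time stands in a single protocol text shared by the samples and could not be checked here. The order of adding the agents is not stated in the labels. An untreated control group of 2 arrays entered the same model and is quoted for context. No array analysed here held gefitinib without EGF, so what gefitinib changed by blocking EGF and what it changed by itself cannot be told apart. The titles call the arrays biological replicates of this single line, with nothing on separate cultures. The p-values therefore reflect the spread among these samples alone, and that spread may be technical.

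EGF binds the receptor tyrosine kinase EGFR, whose kinase activity feeds the RAS-ERK cascade, the PI3K-AKT pathway and STAT factors. ERK activity induces early transcription factors and, with them, the phosphatases and adaptors that shut the pathway off again, while AKT keeps FOXO transcription factors out of the nucleus. Gefitinib occupies the ATP pocket of the EGFR kinase. In squamous epithelium the receptor is known for driving proliferation and migration and for restraining terminal differentiation.

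Levels are the deposited log2 values, and differences are EGF plus gefitinib minus EGF in log2 units ± the standard error of the limma fit, with 2 arrays in each group. A probe set was called at a Benjamini-Hochberg adjusted p under 0.05 over all 20893. Each array had a limit, the 95th percentile of its 612 negative-control probe sets, which ran from 7.14 to 7.65, and 38.9% to 42.7% of the transcript probe sets lay above it. Where a group lay at or under the limit on both of its arrays, only a least fold can be stated ("at least"). A log2 difference against such a group is the measured value and may not be its size. Arrays of a group correlated at 0.991 to 0.994 over the probe sets, and EGF with EGF plus gefitinib arrays at 0.973 to 0.974. The 7 squamous epithelial markers that were matched, among them KRT5, CDH1 and EPCAM, lay above the limit (KRT17 and TP63 were not matched). Of the markers of other cell types, the limit was passed by 1 of 10 for fibroblasts (LUM), 2 of 10 for endothelium (ERG and CDH5), 1 of 11 for leukocytes (CD68) and 1 of 6 for melanocytes (MITF). COL1A1, PECAM1, PTPRC and PMEL, defining markers of those types, were not above it on any of the 4 arrays. ERG measured 8.17 and 8.69 with EGF and 6.96 and 7.06 with gefitinib and was called lower, and CDH5 4.84 and 5.21 against 7.48 and 7.71 and was called higher. Their part in other results was not tested.

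Adding gefitinib to EGF changed a large part of the transcriptome in both directions. Called higher were 1888 probe sets (9.04% of those tested) and called lower 2062 (9.87%), together 18.9%. Of the named genes 1615 rose and 1872 fell. A change of at least 2-fold was called upward for 1088 probe sets and downward for 1233, and of at least 8-fold for 44 and 41. Without a single array the totals came to 1897 (without EGF 1), 1878 (without EGF 2), 2813 (without EGF plus gefitinib 1) and 2572 (without EGF plus gefitinib 2), against 3950 with all arrays. None of the calls shared with those fits had the opposite sign.

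The calls were spread over the range of expression levels, taken as the mean over the 4 arrays. Of the 11633 probe sets not above the negative-control limit on any of the 4 arrays, 5.52% were called, more of them higher (415) than lower (227). Above the limit the called share was 34.6% for levels under 9, 37.3% for 9 to 11, 37.4% for 11 to 13 and 31.4% for 13 and above. The balance of direction moved with level, as the plot of shares by level shows. Under 9 the calls were near even, with 573 higher and 589 lower, whereas from 11 to 13 there were 284 higher and 434 lower. At 13 and above 130 rose and 187 fell, and the median size of a called change was 0.94, against 1.20 under 9. Since most genes of the lists below lie above the limit, the shares called among the 9260 probe sets above it, 15.9% higher and 19.8% lower, stand as a further background.

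**Figure D1:**
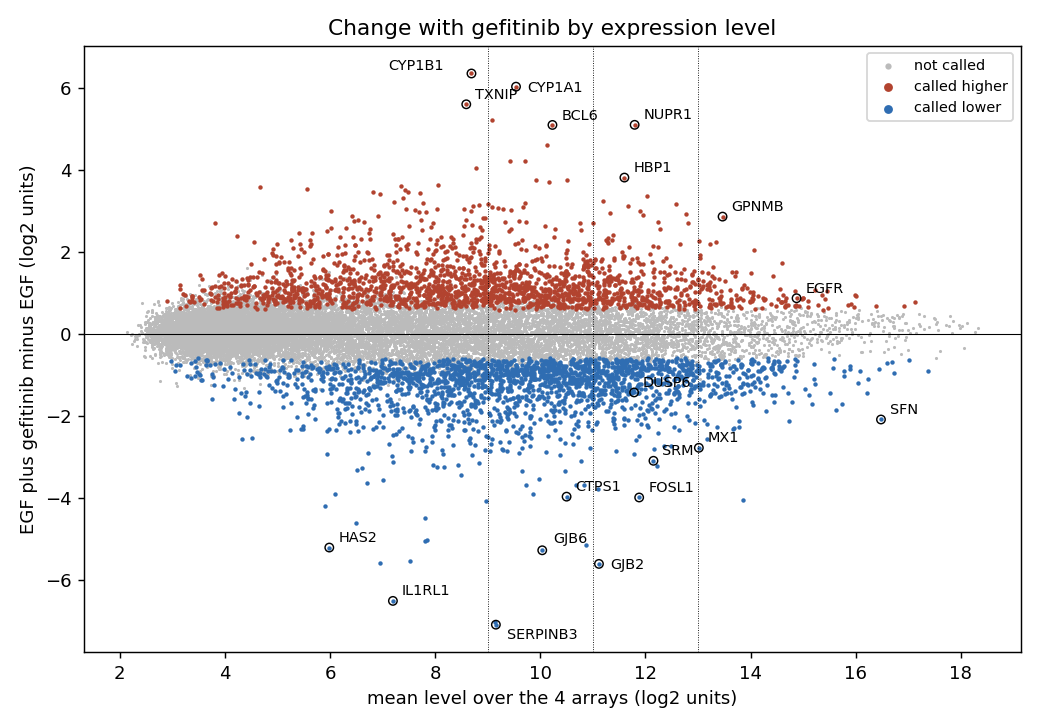
Difference between EGF plus gefitinib and EGF (log2 units, vertical) against the mean level over the 4 arrays (log2 units, horizontal) for 20893 probe sets, with calls at an adjusted p under 0.05 in red (1888 higher) and blue (2062 lower), and dotted lines at levels 9, 11 and 13. Called probe sets lie at all levels, and circled genes such as CYP1B1 and SERPINB3 stand at the edges.

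**Figure D2:**
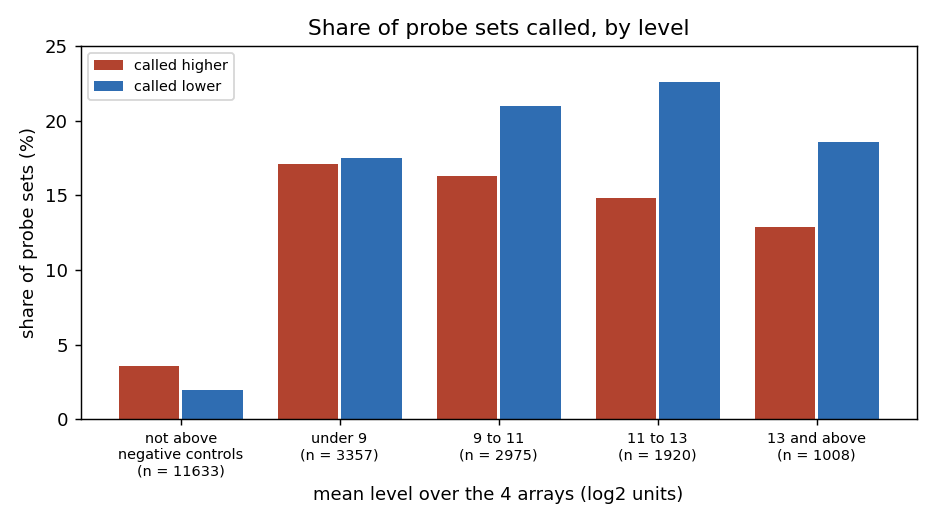
Share of probe sets called higher (red) and lower (blue) in 5 classes of mean level over the 4 arrays (log2 units), with the number of probe sets in each class. The share called lower exceeds the share called higher from level 9 upward, and 3.57% and 1.95% were called in the class not above the negative controls.

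Among genes at level 13 and above, those with the largest rises and falls came from several functions. GPNMB, a transmembrane glycoprotein of melanosomes and lysosomes, measured 12.03 and 12.05 with EGF and 15.15 and 14.64 with gefitinib, a rise of 2.86 ± 0.22 (adjusted p = 0.000517). FYB1, an adaptor protein best known from T cells, rose by 2.19 ± 0.19, DST, which ties keratin filaments to hemidesmosomes, by 2.04 ± 0.18, and ACKR3, a chemokine scavenging receptor, by 1.92 ± 0.17. On the falling side stood HNRNPAB, an RNA-binding protein, with 14.53 and 14.48 against 12.28 and 12.17 (a difference of −2.28 ± 0.17, adjusted p = 0.000512), and TNFRSF12A, the receptor of the cytokine TWEAK (a difference of −2.29 ± 0.18). SFN, the 14-3-3 protein of stratified epithelium, had values of 17.48 and 17.57 with EGF and 15.50 and 15.37 with gefitinib, a 4.27-fold fall near the top of the scale. The rule behind the largest rises and falls required groups that did not overlap. Of all probe sets, 31.0% did not overlap upward and 26.3% downward.

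The receptor's own transcript was higher with its inhibitor. EGFR measured 14.44 on both EGF arrays and 15.26 and 15.36 with gefitinib, a 1.82-fold rise (0.87 ± 0.17, adjusted p = 0.0122). The gefitinib arrays lay above both EGF arrays, but the call was lost without EGF 1, EGF 2 or EGF plus gefitinib 2 (differences of 0.81 to 0.92, adjusted p up to 0.0717). ERBB3, the partner receptor with an impaired kinase, rose 5.16-fold, from 9.13 and 9.01 to 11.30 and 11.57 (2.37 ± 0.18, adjusted p = 0.000543). Several ligands of the family fell. EREG fell from 9.19 on both EGF arrays to 6.64 and 6.76, at least 3.29-fold, and NRG1, a ligand of ERBB3 and ERBB4, from 14.14 and 14.35 to 12.81 and 12.73. TGFA fell by 1.33 and HBEGF by 1.22, whereas the ligand NRG4 rose by 0.77. The ligand genes BTC, EPGN, EGF and NRG2 were not called (0.10, −0.35, 0.41 and 0.09). Of the 12 members measured, 3 rose and 4 fell (1 rose without EGF 1, EGF 2 or EGF plus gefitinib 2, and 2 without EGF plus gefitinib 1). AREG and ERBB2 were not matched.

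Of 23 other receptor tyrosine kinases 5 rose (21.7%) and 4 fell (17.4%), with a median difference of 0.01. Over all probe sets 9.04% rose and 9.87% fell, and above the limit, where 13 of the 23 lay, 15.9% and 19.8%. FGFR2, a receptor of keratinocyte growth factor, rose 3.38-fold, from 9.98 and 9.97 to 11.82 and 11.64 (adjusted p = 0.00103). IGF1R, the insulin-like growth factor receptor, rose by 1.36 ± 0.17 and the ephrin receptor EPHA4 by 1.62 ± 0.25. KIT was called higher (3.59 ± 0.32) but lay within the negative-control range on all 4 arrays, so no fold is given. EPHA1, TYRO3, ROR1 and MST1R fell, by 0.73 to 0.98. The count of falls was 1 without EGF 1, EGF 2 or EGF plus gefitinib 2, and 2 without EGF plus gefitinib 1.

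Inhibitors that receptors, ERK and cytokines induce against themselves did not fall as a block. Of 29 measured, 7 fell (24.1%) and 4 rose (13.8%), beside 9.87% and 9.04% of all probe sets. Above the limit, where only 19 of the 29 lay, 19.8% and 15.9% of probe sets fell and rose. The median difference was −0.18 beside 0.0475 over all probe sets. SOCS2 and CISH, which damp STAT5 signalling, went from 9.76 and 9.73 to 3.90 and 4.42 and from 8.16 and 8.34 to 4.76 and 5.18, falls of at least 4.83-fold and 1.71-fold. PHLDA2, a small pleckstrin homology protein, fell 12.9-fold. DUSP6, the cytoplasmic ERK phosphatase, measured 12.58 and 12.41 with EGF and 11.23 and 10.90 with gefitinib, a 2.70-fold fall (adjusted p = 0.00344). DUSP7, another ERK phosphatase, fell by 2.09, DUSP4 by 0.91 and SPRY4, of the same family as SPRY1, by 1.42. ERRFI1, which binds and inhibits EGFR, was not called (14.36 with EGF, 14.22 with gefitinib), nor were SPRY1, DUSP5 or PHLDA1. DUSP10, a phosphatase of p38 and JNK, rose 3.57-fold, from 10.56 and 10.41 to 12.37 and 12.28 (adjusted p = 0.000995), and SPRED2, an inhibitor of RAS signalling, by 1.10. Without EGF 2 the count of rises was 1.

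Growth factor induced transcription factors divided along similar lines, with 7 of 28 lower, 5 higher and a median of −0.06. FOSL1, an AP-1 subunit, went from 13.88 and 13.87 to 10.21 and 9.55, a 15.9-fold fall. EGR1, a zinc finger factor downstream of ERK, went from 11.80 and 11.77 to 10.23 and 9.10 (4.36-fold lower, adjusted p = 0.00607), and EGR3, a related factor whose gefitinib arrays were within the negative-control range, fell by 2.33 ± 0.27. The gefitinib arrays differed from each other by more than the EGF arrays for both FOSL1 and EGR1, yet lay below them. ETS1 and ELK3, ETS family factors, fell by 1.51 and 1.34. ATF3, a stress-induced factor of the ATF family, rose by 1.92 ± 0.20, from 6.33 and 5.92 to 8.0 and 8.10, and ETV5, another ETS factor, at least 2.61-fold, from 7.13 and 6.73 to 9.0 and 8.52. FOS was called higher within the negative-control range, a call that was lost without any 1 of the 4 arrays. Over the list, 2 or 3 rises were called without any 1 array, and 5 falls, or 10 without EGF plus gefitinib 1. KLF6, IER5 and JUN were not called (differences of −0.09, −0.03 and 0.74).

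In the MYC network, whose members pair with MAX or MLX on E-box sequences, MYC fell by 0.80 ± 0.17 (13.64 and 13.60 against 12.92 and 12.73). Its call was lost without EGF 1, EGF 2 or EGF plus gefitinib 2 (adjusted p up to 0.104). MLX fell 3.43-fold and MXD1, a MAX partner that opposes MYC, 2.09-fold, while the MAX partner MXI1 rose 3.30-fold, from 10.74 and 10.94 to 12.60 and 12.52 (adjusted p = 0.00116).

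Most interferon stimulated genes fell. Of 24 measured, 14 fell and 2 rose, with a median difference of −1.54, and the count of falls was 14 in each fit without 1 of the 4 arrays. Many of these genes share a promoter element bound by STAT and IRF factors. The promoters of a chemokine and of a guanylate-binding protein of this list are shown because both hold such a motif. They are the 250 bases before the RefSeq gene start (GRCh38.p14), with the motif, GAAA, any 2 bases and GAAA, or its reverse complement, in capitals. That of CXCL10 lies at chr4:76023498-76023747, minus strand and that of GBP1 at chr1:89065209-89065458, minus strand.
CXCL10: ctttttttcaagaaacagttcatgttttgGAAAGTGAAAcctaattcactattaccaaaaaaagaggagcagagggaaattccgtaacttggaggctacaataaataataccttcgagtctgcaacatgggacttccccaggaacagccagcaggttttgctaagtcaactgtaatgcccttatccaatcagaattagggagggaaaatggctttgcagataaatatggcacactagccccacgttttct
GBP1: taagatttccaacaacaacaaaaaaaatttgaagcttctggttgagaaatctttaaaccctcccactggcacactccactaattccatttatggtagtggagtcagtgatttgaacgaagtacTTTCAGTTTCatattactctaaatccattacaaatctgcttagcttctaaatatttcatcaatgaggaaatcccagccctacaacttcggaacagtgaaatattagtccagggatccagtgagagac
The motif starts 221 bases before the start of CXCL10 and 127 before that of GBP1. On either strand of the window from 250 bases before to 50 after the start, 13 of the 17 list members with a promoter in the table held it, of which 7 fell and 1 rose, against 3.11% of all 14250 promoters. Among genes that fell at least 2-fold the share was 4.81%, and among those that rose 2.99%. The list members IFIT1, which rose, and IFI6, IFI27, IFI44, IFIT3 and ISG20, which were not called, held the motif too.

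CXCL10, a chemokine that attracts T cells, measured 9.79 and 10.79 with EGF and 4.48 and 5.01 with gefitinib, at least 7.05-fold lower (adjusted p = 0.000258). GBP1, an interferon-induced GTPase, went from 12.36 and 12.98 to 9.08 and 8.87, a fall by 3.70 ± 0.24. MX1, an antiviral GTPase, fell 6.88-fold, from 14.26 and 14.55 to 11.53 and 11.72. The chemokines CXCL9 and CXCL11 fell by 4.20 and 3.19, the RNA sensors OAS1, OAS2 and OAS3 by 1.92 to 2.20, and the transcription factors IRF1 and IRF9 by 1.52 and 1.56. IFIT2, which restrains viral translation, went against the list and rose by 2.20 ± 0.20, and IFIT1 by 0.65 (1 rise was called without any 1 array). IFIT3, IFI6 and IFI27 were not called, with differences of 0.14, −0.08 and 0.10.

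Cytokines and their receptors fell in part. IL1RL1, the receptor of interleukin 33, measured 10.24 and 10.67 with EGF and 3.53 and 4.34 with gefitinib. IL7R went from 10.12 and 9.98 to 6.15 and 4.96, at least 5.97-fold lower, and IL1R2, a decoy receptor of interleukin 1, from 8.60 and 8.47 to 4.77 and 4.99, at least 2.09-fold. IL4R fell 7.07-fold and OSMR, the oncostatin M receptor, by 1.64. In all, 11 of 22 interleukin receptors fell and 2 rose, with 7 or 8 falls without any 1 array (7 without EGF 1 or EGF 2) and 1 rise without EGF 1, EGF 2 or EGF plus gefitinib 2. IL20RB, a receptor chain for cytokines of the interleukin 20 family, was opposite and rose from 9.98 and 10.23 to 13.17 and 13.27 (8.65-fold, adjusted p = 0.000258). Of 23 NF-kB and inflammatory genes 5 fell (21.7%) and 0 rose, beside 9.87% and 9.04% of all probe sets. Only 11 of the 23 lay above the limit, where 19.8% of probe sets fell and 15.9% rose. IL1B went from 13.05 and 12.91 to 9.63 and 8.76, a 13.8-fold fall, and IL1A, RELB and NFKB1 fell by 2.07, 1.88 and 1.26. TNFAIP3, which switches NF-kB off, measured 13.09 and 12.51 on average and was not called.

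Genes that build ribosomes fell together. Of 27 ribosome biogenesis and RNA polymerase I genes measured, 22 fell and 0 rose, with a median of −1.37. The count of falls was 15 without EGF 2, 17 without EGF 1, 18 without EGF plus gefitinib 1 and 21 without EGF plus gefitinib 2. NOP16, a nucleolar assembly factor, measured 11.40 and 11.49 with EGF and 9.26 and 8.96 with gefitinib (5.06-fold lower, adjusted p = 0.000567). The helicase DDX21 went from 14.90 and 14.75 to 12.46 and 12.54, and NIP7, needed for rRNA processing, from 14.34 and 14.23 to 12.02 and 12.12. PNO1, a small subunit factor, fell 7.19-fold, from 10.48 and 10.25 to 7.14 and 7.90. POLR1A and UBTF, the largest subunit of RNA polymerase I and its activator, fell by 1.47 and 1.04. The abundant nucleolar proteins NPM1 and FBL were not called (differences of −0.01 and −0.32). The E-box CACGTG, the MYC motif, was in 10 of 22 promoters of this list, 9 of them of genes that fell, against 8.69% of all promoters and 10.9% of those of genes above the limit.

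The proteins of the ribosome itself did not follow. Of 22 cytosolic ribosomal protein genes, 1 (RPL37) rose and 0 fell, and all 22 differences were above 0, with a median of 0.39. The signs held under quantile normalization and median centring, but the call of RPL37 (0.67 ± 0.18) was lost without any 1 of the 4 arrays and under median centring. The count of rises was 12 when only probe sets above the limit on both arrays of at least 1 of the 3 groups were tested. It was 19 with a variance prior that follows the level. Of 26 oxidative phosphorylation subunits 0 were called by limma, with 7 at an unadjusted p under 0.05 and a median of 0.11. With the variance prior that follows the level, 6 rose and 4 fell.

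Protein quality control fell on several sides. Of 28 proteasome subunits 18 fell and 0 rose (median −0.84), a count that was 9 without EGF 1 or EGF 2, 13 without EGF plus gefitinib 1 and 12 without EGF plus gefitinib 2. The lid subunits PSMD12 and PSMD14 went from 13.01 and 12.87 to 10.88 and 11.07 and from 12.45 and 12.43 to 10.58 and 10.73. Of 17 heat shock proteins and chaperones 12 fell and 1 rose (median −0.82), and a count of 8 falls without EGF 1 or EGF 2. HSPA1A, the inducible HSP70, measured 14.88 and 14.94 with EGF and 12.58 and 12.69 with gefitinib (4.84-fold lower), although its near-identical copy HSPA1B can share its signal. HSPH1, a partner of HSP70, fell 4.38-fold and CHORDC1, a partner of HSP90, 7.61-fold. The chaperonin subunits CCT2 and CCT5 fell by 1.56 and 1.51, while HSP90AB1 and HSPB1 were not called (−0.09 and 0.13).

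Aminoacyl-tRNA synthetases, which load amino acids onto tRNAs, divided. WARS1, HARS1, FARSA, FARSB and KARS1 fell by 0.61 to 1.71, whereas AARS1, EPRS1, CARS1, SARS1, YARS1 and IARS1 rose by 0.65 to 1.09. AARS1 went from 12.61 and 12.66 to 13.62 and 13.83 (adjusted p = 0.00614) and WARS1 from 16.02 on both EGF arrays to 14.48 and 14.14 (adjusted p = 0.00153). The count of rises was 1 without EGF 1 or EGF plus gefitinib 2, 2 without EGF 2 and 3 without EGF plus gefitinib 1, and that of falls 3 without EGF 1 or EGF plus gefitinib 2.

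Genes of the integrated stress response, in which phosphorylated eIF2 lets the factor ATF4 be translated, mostly rose. Of 19 effectors 12 rose and 1 fell (median 1.28), with 9 rises without EGF 1, EGF 2 or EGF plus gefitinib 1. Of 21 genes of amino acid synthesis and transport 11 rose and 1 fell (median 0.73), with 8 or 9 without any 1 array. Such genes are known to be driven through elements that ATF4 and CEBP factors bind, and the promoters of a synthetic enzyme and a glutathione-degrading enzyme are shown since both hold its core, TGATGNAA, in capitals. They are again the 250 bases before the RefSeq start in GRCh38.p14, at chr7:97872409-97872658, minus strand for ASNS and chr15:40953221-40953470, plus strand for CHAC1.
ASNS: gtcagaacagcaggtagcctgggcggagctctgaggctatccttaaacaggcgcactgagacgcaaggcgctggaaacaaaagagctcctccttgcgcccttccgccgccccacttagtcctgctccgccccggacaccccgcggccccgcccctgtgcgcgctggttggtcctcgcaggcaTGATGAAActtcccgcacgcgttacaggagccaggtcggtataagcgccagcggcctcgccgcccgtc
CHAC1: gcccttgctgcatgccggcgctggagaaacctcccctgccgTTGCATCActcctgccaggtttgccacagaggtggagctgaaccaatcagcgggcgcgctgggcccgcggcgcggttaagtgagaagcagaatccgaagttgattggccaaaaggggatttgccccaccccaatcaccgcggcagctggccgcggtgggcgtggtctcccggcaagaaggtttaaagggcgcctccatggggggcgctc
The core starts 68 bases before the start of ASNS and, on the other strand, 209 before that of CHAC1. In windows reaching 50 bases past the start it was in 5 of 17 amino acid genes, 3 of 18 stress response genes and 5 of 14 tRNA synthetases, against 2.52% of all promoters. Among those with the core, the amino acid genes ASNS and SLC3A2 rose and SLC38A1, SLC7A1 and GOT1 were not called, and the stress response genes CHAC1 and HERPUD1 rose and FGF21 was not called. Of the synthetases with the core, AARS1, CARS1 and IARS1 rose and none fell, and NARS1 and TARS1 were not called. Over all genes that rose at least 2-fold the share was 2.73%, beside 2.14% of those that fell and 1.69% of genes above the limit.

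ASNS, which makes asparagine, measured 11.12 and 10.87 with EGF and 13.66 and 13.45 with gefitinib, a 5.90-fold rise (2.56 ± 0.19, adjusted p = 0.000437). CHAC1 went from 6.41 and 5.58 to 9.86 and 9.01, at least 4.17-fold. NUPR1, a stress-induced chromatin protein, went from 9.35 and 9.14 to 14.80 and 13.89, with gefitinib arrays further apart than the EGF arrays and above both of them. ATF4 itself rose from 12.91 and 12.86 to 14.44 and 14.36, DDIT3, the factor CHOP, at least 1.29-fold from 5.49 and 5.38 to 8.12 and 7.36, and PPP1R15A, which recruits the phosphatase of eIF2, 4.44-fold from 9.13 and 8.93 to 11.30 and 11.06. SLC7A11, the cystine transporter, went from 7.38 and 6.13 to 10.41 and 11.20, at least 10.8-fold. CTH, which makes cysteine, rose at least 3.36-fold and PSAT1, of serine synthesis, 4.73-fold, from 12.34 and 12.11 to 14.47 and 14.46. Transporters at high levels rose less, SLC7A5 by 0.73, SLC3A2 by 0.71 and SLC38A2 by 1.03. HSPA5, the chaperone of the endoplasmic reticulum, fell by 0.91 (not called without EGF 1 or EGF 2) and XBP1, of the unfolded protein response, was not called (−0.50). ALDH18A1, of proline synthesis, fell by 1.39.

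FOXO and starvation induced genes rose, 12 of 22 with 0 falls (median 0.88), and 10 to 12 rose without any 1 array. FOXO factors bind the forkhead site GTAAACA, and the promoters of TXNIP and HBP1 are shown with that site in capitals, at chr1:145996580-145996829, minus strand and chr7:107168753-107169002, plus strand of GRCh38.p14.
TXNIP: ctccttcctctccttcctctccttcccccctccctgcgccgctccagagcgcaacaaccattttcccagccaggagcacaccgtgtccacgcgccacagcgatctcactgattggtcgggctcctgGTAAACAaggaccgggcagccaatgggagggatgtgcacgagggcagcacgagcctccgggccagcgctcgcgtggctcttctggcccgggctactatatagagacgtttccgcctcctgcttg
HBP1: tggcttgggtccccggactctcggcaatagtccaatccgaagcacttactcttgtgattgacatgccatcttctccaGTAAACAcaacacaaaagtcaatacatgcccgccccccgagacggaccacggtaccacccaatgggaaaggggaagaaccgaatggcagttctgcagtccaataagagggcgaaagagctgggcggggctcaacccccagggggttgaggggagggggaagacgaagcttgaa
The site starts 124 bases before the start of TXNIP and 173 before that of HBP1. It was in 3 of 19 promoters of this list, of which TXNIP and HBP1 rose and FOXO4 was not called (0.62). Over the whole comparison it was in 39 of 769 promoters of genes that rose at least 2-fold (5.07%), 20 of 936 of those that fell (2.14%), 2.46% of genes above the limit and 2.58% of all 14250. These shares describe letters in a window of 300 bases.

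TXNIP, a brake on glucose uptake and thioredoxin, measured 5.74 and 5.84 with EGF and 11.35 and 11.43 with gefitinib, at least 16.2-fold higher. HBP1, a repressor of cell cycle entry, went from 9.81 and 9.58 to 13.39 and 13.62, a rise by 3.81 ± 0.19. BCL6, a transcriptional repressor, went from 7.83 and 7.53 to 13.12 and 12.43, and FBXO32, the ubiquitin ligase atrogin-1, from 7.94 and 7.72 to 12.45 and 12.43, a 24.4-fold rise. IRS2, the insulin receptor substrate, rose by 3.51 ± 0.24, KLHL24, which targets keratin 14 for degradation, by 3.20, CCNG2, a cyclin of arrested cells, by 2.93 and CDKN1B, the CDK inhibitor p27, by 1.56. FOXO3 rose by 0.99, whereas FOXO1 and PDK4 lay within the negative-control range and were not called.

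Lysosome and autophagy genes rose in 12 of 28 cases and fell in 3 (median 0.43), with 7 rises without EGF 1 and 8 without EGF 2, and 1 fall without EGF 2. FNIP2 and FNIP1, which bind folliculin and act on mTORC1 at the lysosome, went from 6.61 and 5.87 to 9.72 and 10.01, at least 5.61-fold, and from 8.26 and 8.47 to 11.08 and 11.13, 6.66-fold. GABARAPL1, a protein of the autophagosome membrane, rose 8.54-fold, from 7.29 and 7.79 to 10.63 and 10.64, and ATG14, of the autophagy lipid kinase complex, 4.54-fold. SQSTM1, the autophagy receptor p62, went from 13.05 and 12.86 to 14.51 and 14.43. ATG16L1, which helps to lipidate LC3, fell by 1.6, and LAMP1, LAMP2 and CTSD, structural and enzymatic proteins of the lysosome, were not called (0.21 to 0.44).

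The aryl hydrocarbon receptor (AHR) is a ligand-activated factor that induces xenobiotic enzymes. Of 8 genes of its pathway, which count the receptor and its partner ARNT beside targets, 6 rose and 0 fell, and 5 rose without any 1 array. CYP1A1 measured 6.48 and 6.57 with EGF and 12.45 and 12.66 with gefitinib, at least 36.1-fold, and CYP1B1 5.39 and 5.64 against 11.73 and 12.00, at least 22.5-fold. ARNT, the partner of AHR, rose 2.61-fold, TIPARP, which limits AHR, 2.57-fold, and AHR itself by 0.68. NQO1, shared with the NRF2 pathway, was not called (0.27). NFE2L2, which encodes NRF2, rose 3.57-fold, from 11.95 and 12.29 to 13.99 and 13.91, and PIR, an NRF2-induced iron-binding protein, by 2.0 ± 0.18. Of 18 NRF2 and glutathione genes 6 rose and 1 fell, with 2 or 3 rises without any 1 array, and GCLC, GCLM, GSR and PRDX1 were not called.

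More glycolysis genes and lipid synthesis genes fell than rose. Of 25 glycolysis and hypoxia genes 13 fell and 1 rose (median −0.83), with 7 falls without EGF 1 and 8 without EGF 2. TIGAR, a fructose bisphosphatase that slows glycolysis, went from 8.86 and 8.73 to 3.36 and 4.99, and PDK1, which holds pyruvate back from the mitochondria, from 10.27 and 10.44 to 7.59 and 7.99, a 5.91-fold fall. HK2 fell 4.95-fold, PFKP by 1.46, LDHA by 0.95 and SLC2A1, the glucose transporter GLUT1, by 0.91. GAPDH, ALDOA, PKM and VEGFA were not called (0.18, 0.03, −0.14 and 0.34). Of 19 cholesterol and fatty acid genes 10 fell and 1 rose (median −0.66). The count of falls was 3 without EGF 1 or EGF 2, 4 without EGF plus gefitinib 1 and 6 without EGF plus gefitinib 2. HMGCS1, which makes HMG-CoA, went from 15.70 and 15.92 to 13.46 and 13.88 (4.41-fold lower), and ELOVL6, a fatty acid elongase, fell 7.21-fold. SREBF1, a factor of lipid synthesis, rose 2.96-fold, from 10.44 and 10.60 to 12.02 and 12.14. CTPS1, which makes CTP, went from 12.51 and 12.47 to 8.41 and 8.62, a 15.7-fold fall, and SRM, of spermidine synthesis, from 13.64 and 13.77 to 10.71 and 10.5, 8.58-fold.

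Genes of the early and late cell cycle moved apart. Of 24 DNA replication and G1/S genes 10 fell and 1 rose (median −0.53), but only 2 falls were called without EGF 2 and 6 without EGF 1. RRM2, a ribonucleotide reductase subunit, went from 12.61 and 12.64 to 10.73 and 10.91 (3.50-fold lower). MCM10, which starts replication forks, fell by 2.18 ± 0.21 into the negative-control range, the phosphatase CDC25A by 1.89 and CCNE1, cyclin E1, by 1.21. MCM2, MCM3, MCM5 and PCNA were not called. Of 22 mitosis and G2/M genes 8 rose and 0 fell (median 0.50), with 4 rises without EGF 1 or EGF 2 and 13 when only probe sets above the negative-control limit were tested. That filter kept probe sets above the limit on both arrays of at least 1 of the 3 groups. CENPF, a kinetochore protein, went from 11.02 and 11.22 to 12.85 and 13.28 (3.84-fold higher), and TOP2A, topoisomerase II, rose 2.72-fold. CCNB1, CDK1 and CDC20 were not called (0.14, 0.22 and −0.08). In bulk RNA of this kind, fewer cells in a phase and less RNA per cell cannot be told apart. CCND3, cyclin D3, fell 2.75-fold, whereas CCND1 and CDK4 were not called. RBL2, the pocket protein p130, rose 2.15-fold.

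Death and p53 genes were mixed. Of 15 p53 targets 7 rose and 2 fell, with 4 rises without EGF 1 and 1 fall without any 1 array. TP53INP1, of autophagy and cell death, went from 5.57 and 4.61 to 8.54 on both gefitinib arrays, at least 2.25-fold, while AEN, an apoptotic nuclease, fell at least 6.73-fold, from 10.44 and 10.01 to 6.81 and 6.72. MDM2 and CDKN1A, classical p53 targets (the latter listed with the CDK inhibitors), were not called (−0.02 and −0.70). In the BCL2 family 4 of 15 fell (26.7%) and 3 rose (20.0%), beside 19.8% and 15.9% above the limit, where 11 of the 15 lay. The executioners BAX and BAK1 fell by 1.09 and 1.65, and BCL2A1 by 1.51. The BH3-only genes divided. BMF, PMAIP1 and BCL2L11, which encodes BIM, rose by 1.29, 0.96 and 0.91, and BID fell by 1.14. BAD and HRK were not called (0.12 and −0.34). The family's count of rises was 2 without EGF 1 or EGF 2, and 1 without either gefitinib array.

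**Figure D3:**
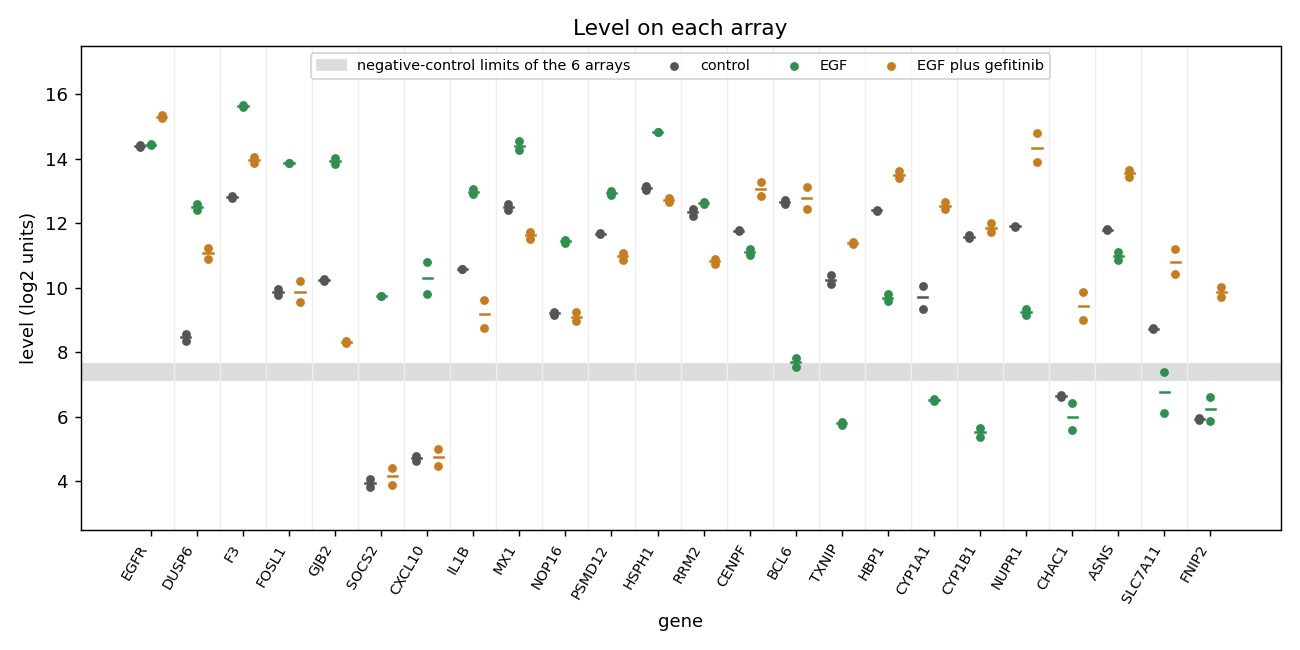
Level (log2 units) of 24 genes on each array of the control (grey), EGF (green) and EGF plus gefitinib (orange) groups, with a bar at each group mean and a grey band for the negative-control limits of the 6 arrays (7.14 to 7.65). In each gene the gefitinib arrays lie wholly above or wholly below the EGF arrays, as in 31.0% and 26.3% of all probe sets. DUSP6 and F3 stay above the control while NUPR1 and FNIP2 pass it.

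Epithelial genes showed large but selective changes. GJB2 and GJB6, connexins of epidermal gap junctions, went from 13.83 and 14.02 to 8.34 and 8.28 and from 12.69 and 12.66 to 7.42 and 7.37, falls by 5.62 ± 0.17 and 5.28 ± 0.17. GJB5 fell 3.80-fold and PKP3, a plakophilin, at least 2.35-fold. Of 23 junction genes 6 fell (26.1%) and 4 rose (17.4%), beside 19.8% and 15.9% of the probe sets above the limit. The rises included DSP (1.06 ± 0.29) and CLDN1 (0.77), but 0 of them were called without EGF 1, EGF 2 or EGF plus gefitinib 2. CDH1, TJP1 and EPCAM were not called (−0.01, 0.38 and −0.24). Of 12 keratin and basal genes 4 fell and 0 rose, a count that held without any 1 array. KRT8 and KRT18, the simple epithelial pair, fell 2.83-fold each, from 15.91 and 15.82 to 14.30 and 14.43 and from 15.24 and 15.19 to 13.62 and 13.80. KRT5 and KRT14, the basal pair, were not called (−0.05 and −0.03).

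Of 27 epidermal differentiation genes measured, 8 fell and 2 rose. Only 11 lay above the negative-control limit on at least 1 of the 4 arrays, and for the rest a lack of a call does not show a lack of change. SPRR2A and SPRR2D, cornified envelope precursors, fell at least 7.24-fold and 7.42-fold, and SERPINB3 and SERPINB4, squamous cell protease inhibitors, at least 37.6-fold and 36.4-fold (12.71 and 12.70 against 5.93 and 5.28 for SERPINB3). The members of each of these pairs are near-identical, so the split between them is uncertain. KLK7, a desquamation protease, fell 4.15-fold. RIPK4, a kinase of epidermal differentiation, rose 8.47-fold, from 8.05 and 8.20 to 11.16 and 11.26, and ELF3, an epithelial ETS factor, by 2.31. KRT10, a keratin of suprabasal layers, was not called (9.07 against 8.94), nor was IVL, which lay within the negative-control range.

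Matrix and adhesion genes fell in 10 of 27 cases and rose in 3 (median −0.56), with 7 falls without EGF 1 or EGF 2. The hyaluronan synthases HAS2 and HAS3 went from 8.55 and 8.64 to 3.37 and 3.39, at least 2.18-fold, and from 7.58 and 8.51 to 3.90 and 4.37, at least 1.49-fold. PLAT, tissue plasminogen activator, fell 11.8-fold, ITGA5, the fibronectin receptor chain, 5.69-fold, and PLAUR, the urokinase receptor, by 2.16. ITGB4, of hemidesmosomes, rose by 1.34 and the collagenase MMP13 by 1.49. Of 21 actin and SRF target genes 10 fell and 0 rose, with 4 to 6 without any 1 array (4 without EGF 2). ACTB, beta-actin, went from 14.63 and 14.45 to 13.45 and 13.19 (2.34-fold lower), and TAGLN fell at least 3.83-fold. Of 13 YAP and TEAD genes 5 fell (3 without EGF 1) and 2 rose (1 without any 1 array). The shares were 38.5% lower and 15.4% higher, beside 19.8% and 15.9% above the limit, where 11 of the 13 lay. The falls included F3, tissue factor, from 15.60 and 15.66 to 14.05 and 13.87, whereas CCN1 and CCN2 were not called.

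In the BMP, activin and TGF-beta group 4 of 24 rose (16.7%) and 3 fell (12.5%), beside 9.04% and 9.87% of all probe sets. Above the limit, where 16 of the 24 lay, 15.9% and 19.8% of probe sets rose and fell. ID2 and ID3, BMP-induced inhibitors of differentiation, rose at least 3.42-fold, from 5.23 and 5.87 to 9.44 and 8.86, and 3.41-fold, from 9.09 and 9.19 to 11.14 and 10.67. INHBA, the activin A subunit, fell at least 4.54-fold. FST, which traps activin, went from 13.09 and 13.15 to 10.62 and 10.65, a difference of −2.49 ± 0.17. Among ion and water transport genes AQP3, a water and glycerol channel, fell 3.19-fold, and NEDD4L, a ubiquitin ligase of the epithelial sodium channel, rose 3.15-fold. Of 13 mRNA decay factors 4 rose and 1 fell, with 1 rise without EGF 1 or EGF 2 and 2 without EGF plus gefitinib 2. PNRC1, which binds the decapping complex, rose 8.95-fold, from 10.87 and 11.12 to 14.38 and 13.93, and the rises of DCP2 and CNOT8 were lost without EGF 1 or EGF 2.

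**Figure D4:**
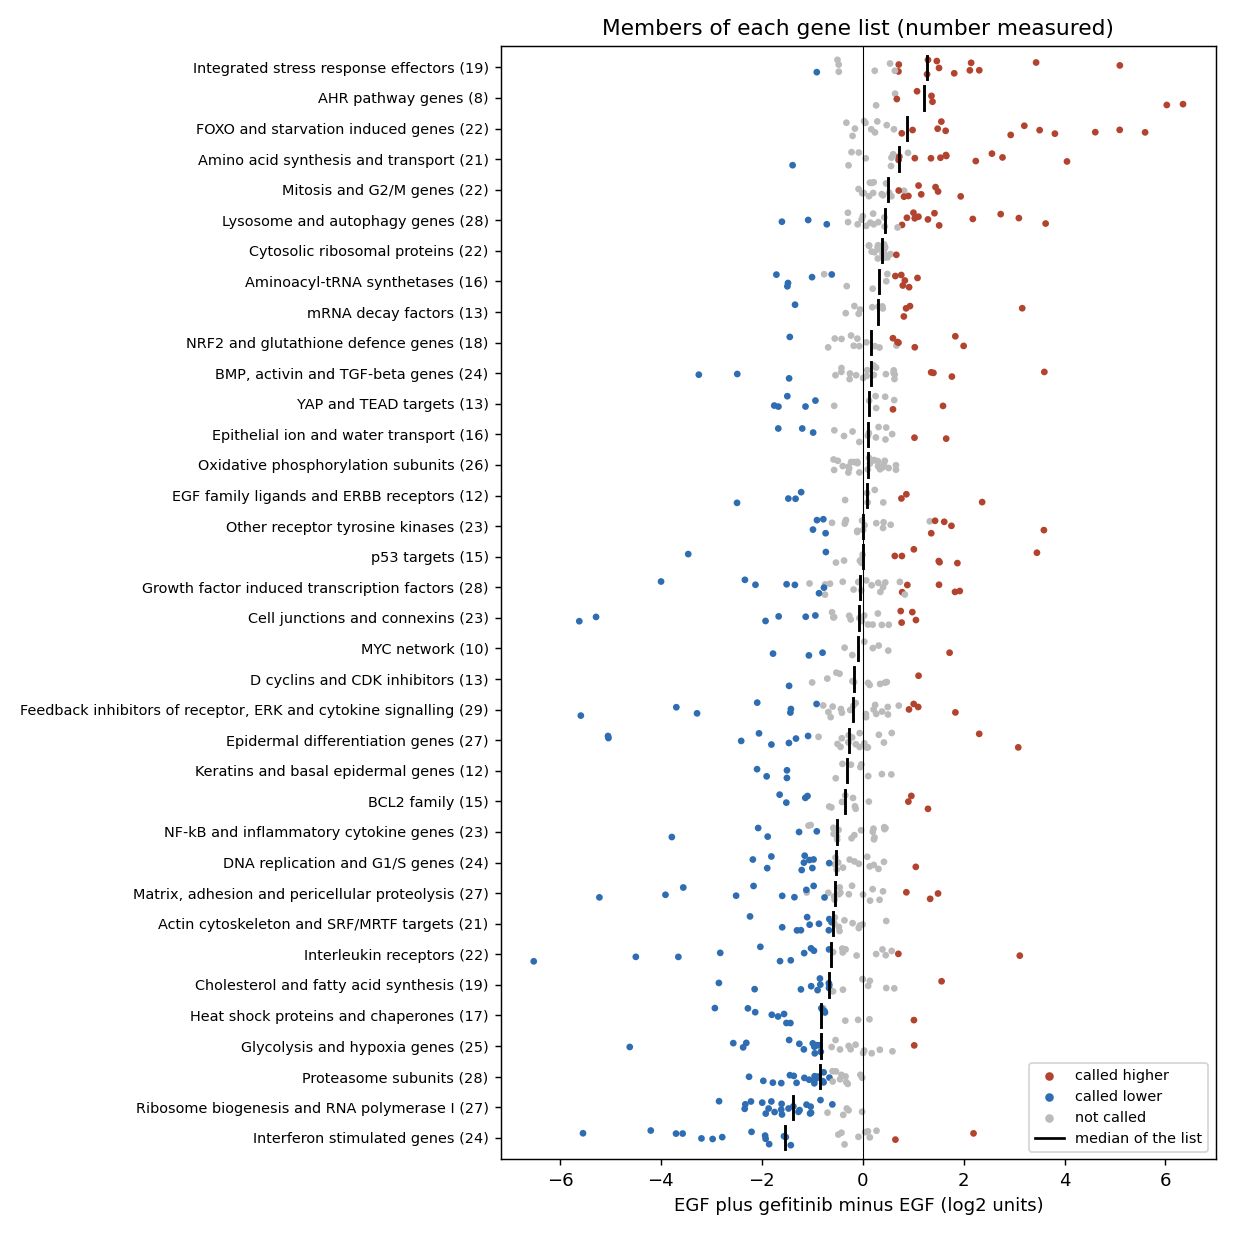
Difference between EGF plus gefitinib and EGF (log2 units) for each measured member of 36 gene lists, ordered by the median of the list (black bar), with calls higher in red, lower in blue and no call in grey, and vertical jitter only to separate the points. The stress response, AHR and FOXO lists stand at the top, and the interferon, ribosome biogenesis and proteasome lists at the bottom.

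Against the untreated control, the levels with EGF plus gefitinib fell into several kinds. This comparison shares the gefitinib arrays with the previous results, so the values are set side by side. Some genes lowered by gefitinib stayed above the control. DUSP6 averaged 8.46 in the control and was still 2.61 ± 0.20 higher with EGF plus gefitinib (adjusted p = 0.00609), and F3 1.14 ± 0.17 (adjusted p = 0.0223). Others lay near it. The difference from the control was 0.02 ± 0.24 for FOSL1 (adjusted p = 0.982) and −0.10 ± 0.19 for NOP16 (adjusted p = 0.807). CXCL10 and SOCS2 were within the negative-control range both in the control and with gefitinib, so no difference is given.

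A further set went below the control. GJB2 was lower than the control by 1.93 ± 0.17 (adjusted p = 0.00723), EGR1 by 2.02 ± 0.34 (adjusted p = 0.0289), CTPS1 by 1.78 ± 0.18, SRM by 1.76 ± 0.19, RRM2 by 1.52 ± 0.18 and SFN by 1.07 ± 0.17. The EGF arrays of EGR1 (11.80 and 11.77) were near those of the control (11.70 and 11.67). Among genes raised by gefitinib, CYP1B1 (0.28 ± 0.19), BCL6 (0.12 ± 0.26), ERBB3 (−0.05 ± 0.18) and RIPK4 (−0.61 ± 0.18) were not called against the control, which does not show equal levels. Above the control lay FNIP2 (3.94 ± 0.27), CYP1A1 (2.85 ± 0.26), CHAC1 (2.79 ± 0.35), DDIT3 (2.52 ± 0.27), NUPR1 (2.44 ± 0.30), PPP1R15A (2.13 ± 0.19), FNIP1 (2.06 ± 0.18), ASNS (1.76 ± 0.19) and ATF3 (1.76 ± 0.20). EGFR was 0.91 ± 0.17 above it (adjusted p = 0.0362). Of these, FNIP2, CHAC1, DDIT3 and ATF3 did not exceed the limit on the control arrays. PPP1R15A averaged 9.05 in the control and 9.03 with EGF, and its gefitinib arrays lay above the arrays of both.

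Properties outside the expression values also differed between the genes that rose and fell. The genes were those with a promoter in the RefSeq table, without chromosome 8. Those called and changed at least 2-fold spanned a median of 49.0 kb of genome when they rose (quartiles 20.1 and 117) and 26.0 kb when they fell (11.4 and 55.2). The median was 32.8 kb for genes above the limit and 26.9 kb for all 14250. The median GC content of the 300-base window was 63.3% for genes that rose, 65.7% for those that fell, 65.3% for genes above the limit and 63.0% for all. The AHR core GCGTG was in 46.6% of promoters of genes that rose, 55.8% of those that fell, 51.9% of those above the limit and 44.4% of all. The AP-1 motif TGANTCA was in 5.46% of genes that rose and 5.88% of those that fell (5.75% of all and 4.34% above the limit). For the cyclic AMP element TGACGTCA the shares were 2.86% and 3.63% (2.62% of all and 3.48% above the limit). For the NF-kB motif GGGNNTTCC they were 7.41% and 10.6% (7.42% of all and 8.24% above the limit). Motifs were sought on both strands, and the shares carry no test.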

How the data were processed

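RNA of A431 cells was labelled with biotin and hybridised to 1 array per sample. The deposited log2 values came from the authors' run of Transcriptome Analysis Console (the submitters' processing notes name it, per the labels). No source used here gives its version, normalization or background step. Each column was tied to its sample by the labels. Genes were named from the platform annotation: of 20893 transcript probe sets, 17705 had 1 symbol, 0 several and 3188 none. Control rows (2903) and 555 rows with other IDs were left out.

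A limma model (version 3.58.1, R 4.3.3) with 3 group means was fitted over the 6 arrays, with empirical Bayes moderation, 3 residual degrees of freedom and Benjamini-Hochberg adjustment over all 20893 probe sets. The model was tested on simulated data. With 2 arrays a group the number of arrays limits the precision (median standard error 0.217). Genes were named by a rule: up to 6 rises and 6 falls in each of 4 level classes, among called genes whose groups did not overlap. Up to 4 called members per list by moderated statistic were added, with EGFR, FOS, EGR1 and DUSP6. Every other gene named with a value was chosen after its values were seen. The members and lists were chosen with earlier results of these data known. Promoters are RefSeq sequences (GRCh38.p14), used for 14250 of 17687 genes. Genes on chromosome 8, such as MYC, were left out of all promoter motif, span and GC values. Alternatives were the 4 arrays alone, a replicate block, a filter on dim probe sets, other scalings, another variance prior, each array left out, and the rows with other IDs added.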

Additional observations from a re-analysis of the deposited data

How the results depend on the processing

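The counts of probe sets called higher ranged from 866 to 1583 and of those called lower from 1012 to 1764 when any 1 of the 6 arrays was left out, against 1888 and 2062, and no call shared with the full set reversed in any setting run. The fit has 3 residual degrees of freedom and 2 when an array is left out. Testing only the 8888 probe sets above the negative-control limit on both arrays of at least 1 of the 3 groups called 2269 higher and 2559 lower. A variance prior with trend and robust fitting called 2677 and 2727. Quantile normalization gave 1890 and 1995. Centring each array on its median gave 1617 and 2300, so that 41.3% of calls were higher, against 47.8%. The 4 arrays alone gave 1583 and 1764. Adding the 555 rows with other IDs, an alternative chosen after seeing the data, gave 1879 and 2051. Replicate numbers share only a number here (correlation of the deviations −0.00245), and with the replicate block 1639 were called higher and 1802 lower. For the genes picked by the naming rule and those of the last part, most of them chosen for large changes, 2294 values under the alternatives kept their direction and their side of the threshold and 49 lost the call (other list members were not counted). Dim signal limits 11633 probe sets, for which a lack of a call does not show a lack of change.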

Other observations

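The genes below were chosen after their values were seen, so they stand for no group. CD274, the checkpoint ligand PD-L1, measured 9.72 and 9.88 with EGF and 6.71 and 6.37 with gefitinib, at least 5.02-fold lower (2 arrays in each group, limma adjusted p = 0.000477). TAP1, the peptide transporter of antigen presentation, went from 9.58 and 9.80 to 6.62 and 7.33, and IDO1, which degrades tryptophan, from 8.16 and 9.43 to 4.82 and 5.63, a difference of −3.57 ± 0.44. ULBP1, a ligand of the NKG2D receptor of natural killer cells, went the other way, from 6.57 and 5.63 to 9.28 and 8.97, at least 3.36-fold. The EGF and gefitinib arrays did not overlap in these genes, nor in 31.0% of all probe sets upward and 26.3% downward.

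AMD1, of polyamine synthesis, fell 4.20-fold, from 12.40 and 12.48 to 10.22 and 10.53, and PNP, of purine salvage, 4.86-fold, from 13.58 and 13.77 to 11.25 and 11.54. GLUL, which makes glutamine, rose 3.31-fold, from 13.72 and 13.74 to 15.49 and 15.43, and PCK2, the mitochondrial PEP carboxykinase, at least 2.71-fold, from 6.23 and 6.16 to 8.85 and 8.77. TSC22D3, the glucocorticoid-induced leucine zipper, rose at least 7.46-fold, from 7.21 and 7.11 to 10.34 and 10.21. YPEL3, a small protein linked to growth arrest, rose 13.4-fold, from 8.91 and 8.37 to 12.51 and 12.26. GADD45A and GADD45B, stress and growth arrest genes, rose 3.13-fold and 5.75-fold.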
